A study of Mus musculus with 10 samples.

Results

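Transcripts of 9 genes that mark myelin and the oligodendrocyte lineage, Mbp, Mog, Mobp, Mag, Cnp, Mal, Cldn11, Olig1 and Pdgfra, were followed in RNA of microglia from the mouse midbrain and striatum. The genes were given by name, and each matched 1 of the 53715 genes in the count files. Microglia from the midbrain (Mdb) and striatum (Str) of untreated 3-month-old C57BL/6 mice (males of C57BL/6 J in the study's methods) were compared by RNA sequencing of the 3′ ends of transcripts (MARS-seq), in order to see how the cells of the 2 regions differ at steady state. A pilot cohort had 2 libraries of each region. A second cohort had 3 of each, of which 2 per region were compared here, since for the 2 others the title and the file name give different regions, and these stayed in no group. The brains had been perfused, digested with 2 mg/mL papain, passed through a 70 µm strainer and freed of debris and myelin on 25% Percoll before CD11b+ cells were taken on magnetic beads. CD11b is shared by microglia with other myeloid cells, and oligodendrocytes do not carry it. The study's text gives 2 mice for the pilot and 3 for the second cohort, so a mouse gave a library of each region. Which libraries share a mouse is uncertain, since in the second cohort the numbers in titles and file names differ, and libraries were not paired in the fits unless stated.

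Oligodendrocytes wrap axons in myelin, a stack of membrane rich in lipid and in a small set of proteins. Mbp binds the cytoplasmic faces of that membrane together, Mobp is another basic protein of the compact stack, and Mag and Mog lie at the surfaces that face the axon and the outside. Cnp is an enzyme of non-compact myelin, Mal is a membrane protein of lipid-rich domains, and Cldn11 forms the tight junctions between myelin layers. Olig1 is a transcription factor of the lineage, and Pdgfra is the receptor for platelet-derived growth factor on oligodendrocyte precursors. Pdgfra is also made by fibroblasts of the meninges and vessels. Midbrain and striatum both hold myelinated fibre tracts, and microglia take up myelin debris.

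Upstream sequences are shown for Mobp and Pdgfra, because these genes and Mbp were the members whose regions did not overlap in either cohort. They are read from RefSeq promoter windows on GRCm38.p6, 5′ to 3′ on the plus strand, and end before the transcript start. Capitals mark CTTTGT, the reverse complement of ACAAAG, a core motif of SOX factors, of which Sox10 drives myelin genes. Mobp lies at chr9:120149492-120149706 (215 bases) and Pdgfra at chr5:75152001-75152250 (250 bases).
Mobp: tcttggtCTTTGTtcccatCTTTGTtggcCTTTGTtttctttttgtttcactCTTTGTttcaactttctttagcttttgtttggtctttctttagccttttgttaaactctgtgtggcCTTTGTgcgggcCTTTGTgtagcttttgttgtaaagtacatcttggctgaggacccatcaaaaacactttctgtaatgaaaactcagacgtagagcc
Pdgfra: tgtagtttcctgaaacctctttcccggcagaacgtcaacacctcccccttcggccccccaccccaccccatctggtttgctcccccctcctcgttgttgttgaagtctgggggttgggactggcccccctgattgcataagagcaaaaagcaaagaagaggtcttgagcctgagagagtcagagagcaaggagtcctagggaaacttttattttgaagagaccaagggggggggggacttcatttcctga
The Mobp window held 6 matches to ACAAAG, counted on both strands over 300 bases from 250 before to 50 after the start. Of all 32851 promoter windows of that length, 18.7% held at least 1 match and 1 window (0.00304%) held 6 or more. That 1 window is the Mobp window itself, and the cutoff of 6 was taken from its count. Windows of 7 of the 9 genes were searched, 9 windows in all, and 4 of these 9 held ACAAAG. No window was listed for Olig1, and Mbp was left out of the search. The 4 belong to 3 genes, Mobp, Cnp and Mag, since 2 overlapping windows of Mag hold the same match. The Pdgfra window held no ACAAAG and 2 matches to the E-box CANNTG, 1 of them in the stretch printed here, and 72.3% of all windows held CANNTG at least once. Of the other motifs searched on both strands, the E-box form CAGCTG was in 0 of the 9 windows (16.3% of all windows), the second SOX core ACAATG in 0 of 9 (12.6%), the GC box GGGCGG in 2 of 9 (35.7%) and the TATA box TATAAA in 0 of 9 (13.6%). CAGCTG is 1 form of CANNTG, so these searches overlap. A match of letters is a description and does not show binding.

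Myelin RNA was present in every microglial library. The 9 genes together took 0.884% and 0.852% of all counts in the pilot midbrain libraries and 0.836% and 0.461% in the pilot striatum libraries. In the second cohort they took 0.384% and 0.429% in the midbrain and 0.645% and 0.437% in the striatum. By these shares of raw counts, the midbrain was above both striatum libraries in the pilot cohort and below both in the second. The margin in the second cohort was narrow, 0.429% in midbrain replicate 3 against 0.437% in striatum replicate 3. Scaled by their TMM factors, 0.967 and 1.01, these 2 libraries change order. Gene by gene, 2 of the 9 were below in the second midbrain without overlap (17.2% of all genes), 1 was above and 6 overlapped. Mbp alone gave from 49.4% to 64.0% of the reads of the 9 genes in a library. For comparison, 12 genes of homeostatic microglia, among them Cx3cr1, P2ry12 and Tmem119, took from 1.48% to 2.91% of counts and were detected in all 8 libraries. Their share was lower in midbrain, with 1.72% and 1.86% against 2.52% and 2.36% in the pilot and 1.48% and 1.82% against 2.37% and 2.91% in the second cohort. In each cohort 11 of the 12 were lower in both midbrain libraries than in either striatum library, as were 19.8% of all genes in the pilot and 17.2% in the second cohort, and their part in the values of the 9 genes was not tested. The libraries held from 575709 to 8463782 counts, a 14.7-fold range, with the second striatum replicate 3 the smallest. In bulk RNA, fewer cells of a type and less RNA per cell cannot be told apart.

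**Figure D1:**
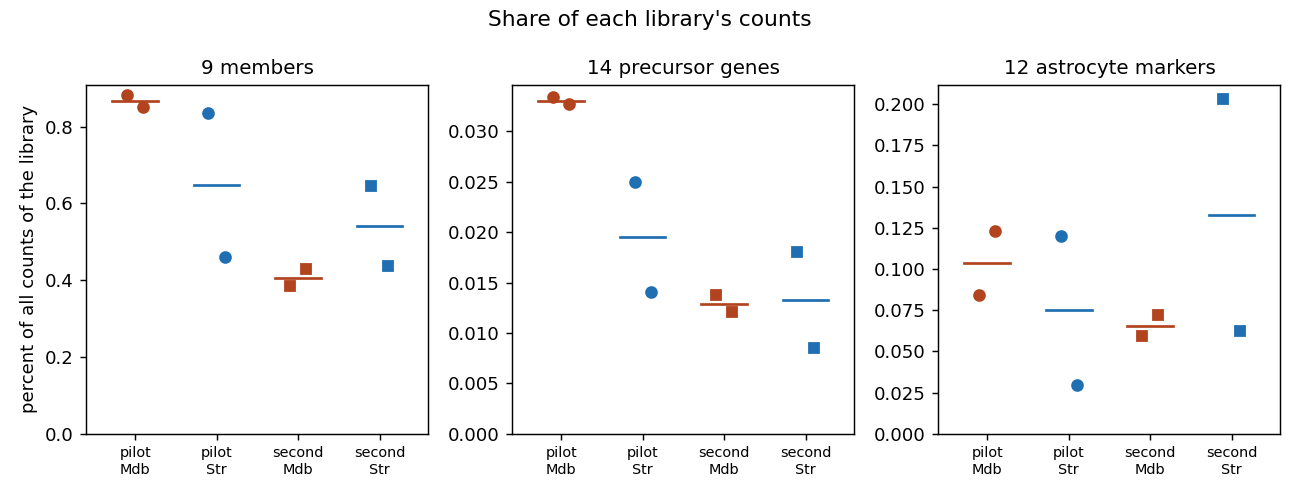
Percent of each library's counts taken by the 9 genes (left), by 14 genes of oligodendrocyte precursors (middle) and by 12 astrocyte markers (right), with 1 point per library and a line at the mean of 2 libraries. Axes are linear and start at 0. Shares of the 9 genes lie between 0.384% and 0.884%, and the 2 striatum libraries of a cohort lie further apart than the 2 midbrain libraries.

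None of the 9 genes passed the test between the regions. In the pilot cohort 0 of 9 were called at an unadjusted p under 0.01 with voom and limma, against 2.64% of the 14972 genes tested (2.09% higher and 0.548% lower in midbrain). In the second cohort 0 of 9 were called, against 3.47% of 13486 genes (2.88% higher and 0.593% lower). In the joint fit of both cohorts 0 of 9 had a Benjamini-Hochberg adjusted p under 0.05, against 1.06% of 14053 genes (0.975% higher and 0.0854% lower). At an unadjusted p under 0.05, limma gave 3 of the 9 in the pilot (10.9% of all genes tested), 1 in the second cohort (10.6%) and 1 in the joint fit (14.6%). edgeR and DESeq2 also called 0 of 9 in each of these fits. For the 9 genes the median change, as log2 of midbrain over striatum, was 0.32 in the pilot, 0.18 in the second cohort and 0.21 in the joint fit, against 0.02, 0.00 and 0.04 for all genes tested. The pilot count rested on a single library. Without pilot striatum replicate 1, 5 of the 9 were called higher in midbrain, with log2 fold changes of 1.01 for Mbp, 1.10 for Mobp, 0.75 for Mag, 0.97 for Mal and 1.65 for Pdgfra, while 16.8% of all genes tested, 2445 of 14571, were called. In that fit the lone striatum library is assumed to vary like the midbrain libraries. Without second midbrain replicate 3, Mbp was called lower in midbrain in the second cohort, with a log2 fold change of -0.65. It was 1 of 8 members tested in that fit, in which 10.1% of all genes, 1240 of 12230, were called. With the title number as a replicate block, Mobp was called in the pilot (2.68% of all genes) and Mbp in the second cohort (7.33%).

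**Figure D2:**
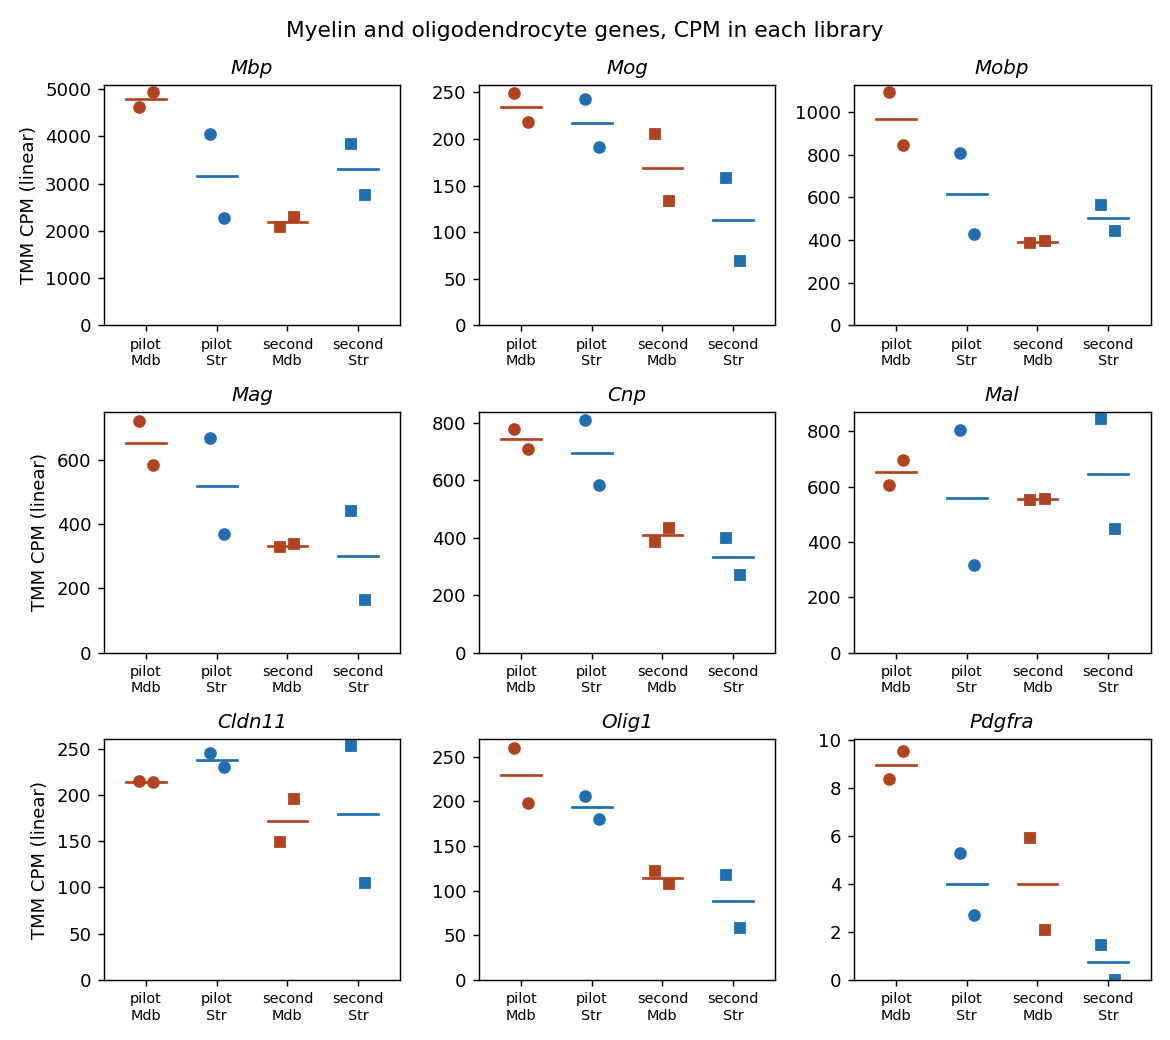
Expression of each of the 9 genes in CPM (counts scaled to library size with TMM factors) on linear axes that start at 0, with 1 point per library (circles pilot, squares second cohort), midbrain in red, striatum in blue and a line at the mean of 2 libraries. Mbp and Mobp lie higher in midbrain in the pilot cohort and lower in the second, and Pdgfra is higher in midbrain in both.

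Mbp (chromosome 18, 82475146 to 82585637 on GRCm38, plus strand) was the member with the clearest turn between cohorts. Its expression in CPM, the count scaled to library size with TMM factors, was 4618 and 4946 in the pilot midbrain libraries and 4041 and 2263 in the pilot striatum libraries. In the second cohort it was 2082 and 2296 in the midbrain and 3836 and 2770 in the striatum. The midbrain libraries were therefore above both striatum libraries in the pilot and below both in the second cohort. The means were 4782 ± 232 and 3152 ± 1257 CPM (SD, n = 2 each) in the pilot, and 2189 ± 152 and 3303 ± 754 CPM in the second cohort. The log2 fold change was 0.61 (SE 0.25, limma adjusted p = 0.441) in the pilot and -0.61 (SE 0.23, adjusted p = 0.371) in the second cohort. In the joint fit it was 0.06, with a 95% confidence interval from -0.50 to 0.61.

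Mobp (chromosome 9, 120149707 to 120181484, plus strand) had the same order of groups. Its CPM were 1091 and 844 in the pilot midbrain and 806 and 427 in the pilot striatum, then 387 and 396 in the second midbrain and 565 and 442 in the second striatum. The pilot midbrain was again above, and the second midbrain below, both striatum libraries of its cohort. The log2 fold change was 0.66 (SE 0.27, limma adjusted p = 0.441) in the pilot and -0.39 (SE 0.24, adjusted p = 0.607) in the second cohort, with a joint interval from -0.33 to 0.76. The 79 exonic bases that Mobp shares with Gm38642 lie 2079 to 2157 bases from its 3′ end, and Gm38642 had 0 counts in every library. 2 of the 9 genes, Mbp and Mobp, separated the regions in opposite directions in the 2 cohorts, as did 4.08% of the 14053 genes. The difference between cohorts in the regional change was -1.25 for Mbp (SE 0.36, unadjusted p = 0.00553) and -1.10 for Mobp (SE 0.40, unadjusted p = 0.0184), and limma's adjusted p was 0.860 for both. At an adjusted p under 0.05, 0 of the 9 and 0% of the 14053 genes passed this test with limma, 2 of the 9 had an unadjusted p under 0.05 (5.49% of all genes), and edgeR and DESeq2 gave 0 of 9. The regional change of these members therefore is not shown to differ between the cohorts after adjustment. Astrocyte markers had fitted changes in the same directions, with 11 of 12 above 0 in the pilot and 12 of 12 below 0 in the second cohort. Their medians were 0.97 and -0.91 on the log2 scale, and 0 and 1 were called, against 2.64% and 3.47% of all genes tested. All 12 were detected in all 8 libraries, and their summed share of counts was 0.0844% to 0.123% in the pilot midbrain, 0.0298% to 0.120% in the pilot striatum, 0.0592% to 0.0719% in the second midbrain and 0.0625% to 0.203% in the second striatum. Their part in the result was not tested.

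Mag and Mog, the adhesion and surface proteins of myelin, did not separate the regions. Mag (chromosome 7, 30899176 to 30914873, minus strand) had 721 and 585 CPM in the pilot midbrain and 667 and 368 in the pilot striatum, and 328 and 337 in the second midbrain against 439 and 163 in the second striatum. Mog (chromosome 17, 37010743 to 37023398, minus strand) had 249 and 219 CPM in the pilot midbrain and 243 and 191 in the pilot striatum, and 206 and 133 in the second midbrain against 158 and 68.7 in the second striatum. For both genes the groups overlapped in both cohorts, and the second striatum replicate 3 was the lowest library. The joint log2 fold change was 0.28 (95% confidence interval -0.28 to 0.83) for Mag and 0.24 (-0.22 to 0.71) for Mog, with limma adjusted p of 0.659 and 0.647.

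For Cnp, Mal and Cldn11 no regional change passed the test either. Cnp (chromosome 11, 100574904 to 100591729, plus strand) had 780 and 711 CPM in the pilot midbrain and 811 and 583 in the pilot striatum, and 384 and 433 in the second midbrain against 399 and 270 in the second striatum. All 4 pilot libraries were above all 4 libraries of the second cohort, and the share of all genes that did this was not computed. The joint log2 fold change was 0.18 (95% confidence interval -0.16 to 0.52, limma adjusted p = 0.641). Cnp shares 154 exonic bases with Dnajc7 on the other strand, 164 to 317 bases from its 3′ end, and reads there were counted for neither gene since the counting used no strand. Dnajc7 had from 84 to 2496 counts per library, so the Cnp counts may be low.

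Mal (chromosome 2, 127633226 to 127656695, minus strand) had 606 and 698 CPM in the pilot midbrain and 803 and 317 in the pilot striatum, and 553 and 556 in the second midbrain against 844 and 449 in the second striatum. In each cohort the midbrain libraries lay between the 2 striatum libraries. Its joint log2 fold change was 0.10 (95% confidence interval -0.50 to 0.70, limma adjusted p = 0.899). Cldn11 (chromosome 3, 31149920 to 31164324, plus strand) had 215 and 214 CPM in the pilot midbrain and 245 and 230 in the pilot striatum, and 149 and 195 in the second midbrain against 253 and 105 in the second striatum. Its pilot midbrain libraries were below both striatum libraries, while in the second cohort the groups overlapped. The joint log2 fold change was -0.15 (95% confidence interval -0.58 to 0.28, limma adjusted p = 0.770).

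The transcription factor Olig1 (chromosome 16, 91269772 to 91271933, plus strand) had 260 and 199 CPM in the pilot midbrain and 206 and 181 in the pilot striatum. In the second cohort it had 122 and 108 CPM in the midbrain and 117 and 58.4 in the striatum. The regions overlapped in both cohorts, and all 4 pilot libraries were above all 4 libraries of the second cohort. How many of all genes separate the cohorts in this way was not computed. The joint log2 fold change was 0.24 (95% confidence interval -0.15 to 0.62, limma adjusted p = 0.574).

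Pdgfra, the precursor receptor, was the member with the largest fitted regional change in each cohort, at low counts. It passed the filter on low counts in the second cohort through the midbrain libraries alone, so that a higher midbrain value there was a condition of being tested. Pdgfra (chromosome 5, 75152292 to 75198215, plus strand) had 49 and 53 counts in the pilot midbrain and 28 and 23 in the pilot striatum, and 28 and 9 counts in the second midbrain against 4 and 0 in the second striatum. In CPM these were 8.39 and 9.57, 5.31 and 2.69, 5.94 and 2.09, and 1.45 and 0. The midbrain was above the striatum without overlap in both cohorts, as was the case for 9.06% of the 14053 genes (23.1% in the pilot and 23.5% in the second cohort alone). Among the 9 genes, 3 were above in the pilot (Mbp, Mobp and Pdgfra), 1 in the second cohort and 1 in both. The log2 fold change was 1.26 (SE 0.43, limma adjusted p = 0.404) in the pilot, 1.58 (SE 0.89, adjusted p = 0.572) in the second cohort and 1.38 (SE 0.41, adjusted p = 0.136) in the joint fit, with a joint 95% confidence interval from 0.50 to 2.27. The value stayed above 0 in 17 of 17 alternatives of the joint fit, from 1.04 to 1.68, with adjusted p from 0.0884 to 0.771. In the second striatum replicate 3, where Pdgfra had 0 counts, 3 counts would be 5.16 CPM, and this count of 0 allows a level of up to that value, which is above the CPM of 3 other libraries. In the exact two-sided permutation test of region labels within cohorts, over 36 labelings, p was 0.0556 for Pdgfra, the smallest that this design allows, and from 0.278 to 0.944 for the 8 others.

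**Figure D3:**
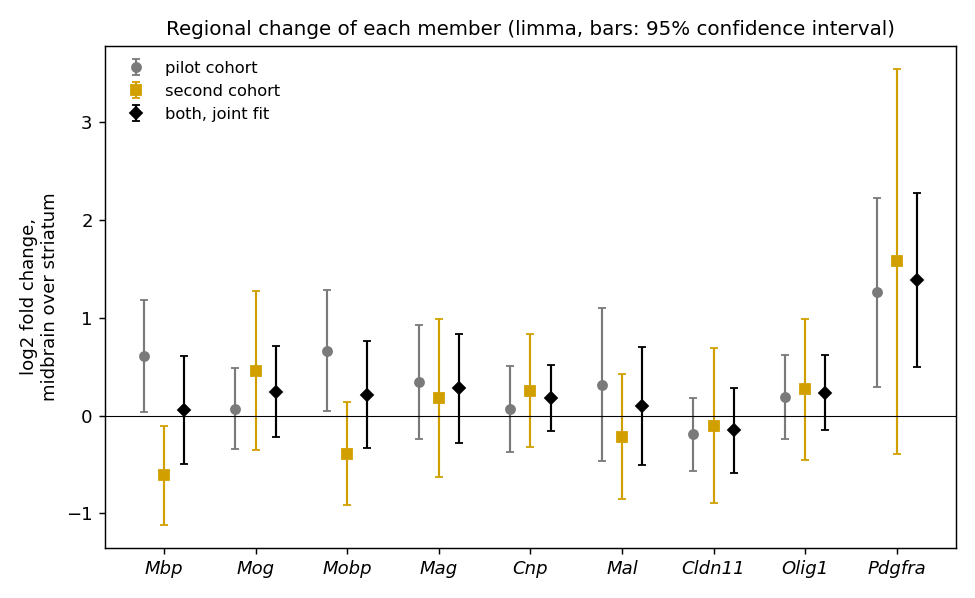
Log2 fold change of midbrain over striatum for each of the 9 genes, with 95% confidence intervals from limma, in the pilot cohort (grey circles), the second cohort (yellow squares) and the joint fit (black diamonds). The line marks 0. Of the joint intervals, that of Pdgfra (0.50 to 2.27) lies above 0, and those of the 8 other genes include 0. In the pilot cohort the intervals of Mbp, Mobp and Pdgfra lie above 0, and in the second cohort that of Mbp lies below 0. The intervals are not adjusted for the number of genes, and no member passed an adjusted p under 0.05.

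Fibroblasts also make Pdgfra. Of 10 markers of fibroblasts and meninges, 7 were tested in each cohort, and 6 of 7 were above 0 in each. In the pilot 4 were called higher, against 2.09% of all genes tested, and in the second cohort 1, against 2.88%. Foxc2 in the pilot and Col1a1, Col3a1 and Foxc2 in the second cohort passed the filter on low counts through the midbrain libraries alone, so that their direction was set by the filter and the counts are a description. Col1a1, a fibrillar collagen chain, had 10.3 and 6.32 CPM in the pilot midbrain and 2.28 and 2.69 in the pilot striatum, and 10.8 and 6.03 in the second midbrain against 0.727 and 1.72 in the second striatum. This gene was chosen after its values were seen. The marker below 0 was Col3a1 in the pilot (log2 fold change -0.48) and Slc6a13 in the second cohort (-0.35). Ptgds had 0.16 in the pilot and 0.03 in the second cohort. The summed share of the 10 markers was 0.200% to 0.202% in the pilot midbrain, 0.132% to 0.221% in the pilot striatum, 0.175% to 0.177% in the second midbrain and 0.0881% to 0.308% in the second striatum. Igf2 was at 0 in all 8 libraries, and Col3a1, Lum, Ogn and Foxc2 were at 0 in some. Their part in the Pdgfra values was not tested.

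By the median over the 9 genes, the striatum replicates differed more than the regions did, though not for every gene. Between the 2 pilot striatum libraries the median absolute log2 ratio over the 9 genes was 0.836, and between the 2 second striatum libraries it was 1.00. Between the midbrain replicates the medians were 0.187 in the pilot and 0.171 in the second cohort. The median absolute difference between the regions was 0.365 in the pilot and 0.351 in the second cohort, on the log2 CPM scale with a prior count of 2. In each cohort the regional difference was smaller than the larger replicate ratio for 7 of the 9 genes. A difference between means of 2 libraries varies less than a ratio of single libraries, and the larger of 2 ratios was taken. The comparison thus favours this outcome, its share over all genes was not computed, and the count is a description. Replicate 1 had the higher value for 9 of 9 genes in both striatum groups, and for 6 and 3 of 9 in the pilot and second midbrain groups. Each of these counts compares the same 2 libraries over genes that varied together. The share over all genes was not computed. The largest striatum replicate ratios were 1.34 for Mal in the pilot and 2.14 for Pdgfra in the second cohort, where 0 counts stand in the lower library. For Cldn11 the pilot replicates were close, with log2 ratios of 0.01 in midbrain and 0.09 in striatum, but the second striatum libraries differed by 1.27.

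**Figure D4:**
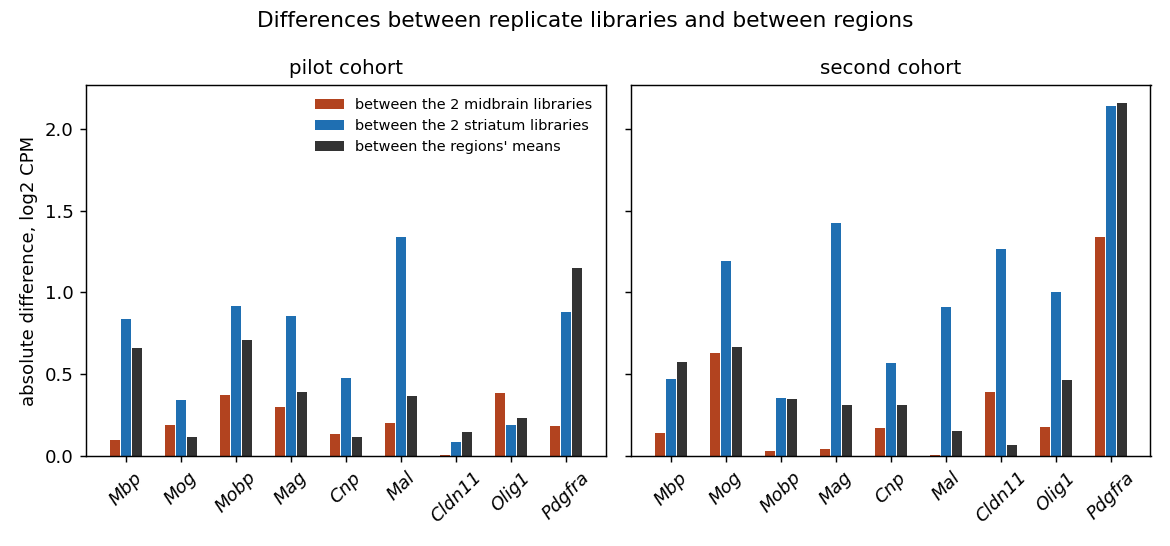
Absolute log2 difference in CPM (prior count 2) between the 2 midbrain libraries (red), between the 2 striatum libraries (blue) and between the means of the regions (dark) for each of the 9 genes in the pilot cohort (left) and the second cohort (right). Axes are linear and start at 0. For 7 of 9 genes in each cohort the regional bar is below the taller replicate bar, an outcome that the use of means favours.

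How the variation of each gene fell to cohort, region and replicate differed among the members. Of the variation in log2 CPM over the 8 libraries, cohorts took 82.1% for Cnp and 73.4% for Olig1 but 0.0941% for Mal. Replicates within a group took 89.4% for Mal and 68.5% for Cldn11, and regions within cohorts took 43.6% for Mbp, the highest of the 9. The regional part adds up the differences of both cohorts whatever their direction. For Mbp these were opposite, 0.66 in the pilot and -0.58 in the second cohort on the log2 CPM scale. All 9 genes had a lower mean in the second midbrain than in the pilot midbrain, while Mbp and Mal had a higher mean in the second striatum than in the pilot striatum. The shares over all genes were not computed. A difference between the cohorts and any difference in how they were handled cannot be told apart.

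In order to see whether the wider lineage behaved as the 9 genes did, lists of other oligodendrocyte genes were examined. In the joint fit 0 of 20 other myelin proteins, 0 of 13 enzymes of myelin lipids and metabolism, 0 of 9 transcription factors and 0 of 12 precursor genes passed an adjusted p under 0.05 with limma. Their median log2 fold changes were 0.04, 0.30, 0.17 and 0.90. Sox10, the lineage transcription factor, had a joint log2 fold change of 0.21 (SE 0.19, adjusted p = 0.653), and Cspg4, the NG2 proteoglycan of precursors and pericytes, had 0.27 (SE 0.25, adjusted p = 0.664). Of the 54 genes tested from these lists, 9 had an unadjusted p under 0.05 in the joint fit, where 14.6% of all genes did, edgeR called 0 and DESeq2 called 2 (Matn4 and Vcan).

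Several precursor genes were higher in the pilot midbrain. Of 13 tested in the pilot, 5 were called higher at an unadjusted p under 0.01 with limma, against 2.09% of all genes tested. All 13 were above 0, with a median log2 fold change of 1.15. Of the other lists, 0 of 20 myelin proteins, 0 of 13 enzymes and 0 of 10 transcription factors were called. Their medians were 0.14, 0.17 and 0.08. The 5 were Cacng4, a subunit that goes with AMPA receptors (log2 fold change 2.22, SE 0.41), Neu4, a sialidase (1.85, SE 0.53), C1ql1, a secreted C1q-like protein (1.84, SE 0.45), Gpr17, a receptor of committed precursors (1.23, SE 0.32), and Matn4, a matrix protein (1.15, SE 0.34). The limma adjusted p of the 5 ranged from 0.167 to 0.365, so that the call rests on the unadjusted threshold. A gene could pass the filter on low counts through the libraries of 1 region, as Lhfpl3 did, so the number above 0 is a description. The 12 astrocyte markers also had a median of 0.97 in the pilot, with 11 of 12 above 0, and of -0.91 in the second cohort, and their part in the precursor values was not tested. Cacng4 had 20.2 and 24.2 CPM in the pilot midbrain and 7.77 and 3.04 in the pilot striatum, and Gpr17 had 14.4 and 15.7 against 6.64 and 5.85. In the second cohort 7 precursor genes passed the filter, 0 were called with limma, 3 were above 0 and the median was -0.39. Gpr17 and Neu4 had 0 counts in all 4 libraries of the second cohort, where 3 counts correspond to between 0.637 and 5.16 CPM. Cacng4 had 4.03 and 3.71 CPM in the second midbrain and 6.91 and 1.72 in the second striatum, which overlapped. Matn4 was above in midbrain in both cohorts, with 14.7 and 14.4 against 5.12 and 7.37 CPM in the pilot and 3.82 and 5.80 against 2.18 and 1.72 CPM in the second cohort, and a joint log2 fold change of 1.15 (SE 0.28, limma adjusted p = 0.0839). Vcan, a matrix proteoglycan that monocytes also make, had 29.7 and 6.50 CPM in the second midbrain and 2.18 and 0 in the second striatum. Vcan, also 1 of 8 monocyte markers, was called in neither cohort with limma (unadjusted p = 0.0572 in the pilot and 0.0186 in the second cohort). In the second cohort it was called with edgeR (unadjusted p = 0.00312) and DESeq2 (unadjusted p = 0.00105), which called 3.99% and 3.29% of all genes tested. Limma with the title number as a replicate block called it too, with 7.33% of all genes. Of these 8 markers, 6 were called higher in midbrain in each cohort, against 2.09% and 2.88% of all genes tested. Their summed share of counts was 0.0247% to 0.0308% in the pilot midbrain, 0.0111% to 0.0112% in the pilot striatum, 0.0576% to 0.276% in the second midbrain and 0.0139% to 0.0196% in the second striatum, with Vcan and Ms4a4c each at 0 in 1 library, and their part in the Vcan values was not tested. The pilot count of 5 fell without either midbrain library and rose without striatum replicate 1. These fits leave a region with a single library.

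**Figure D5:**
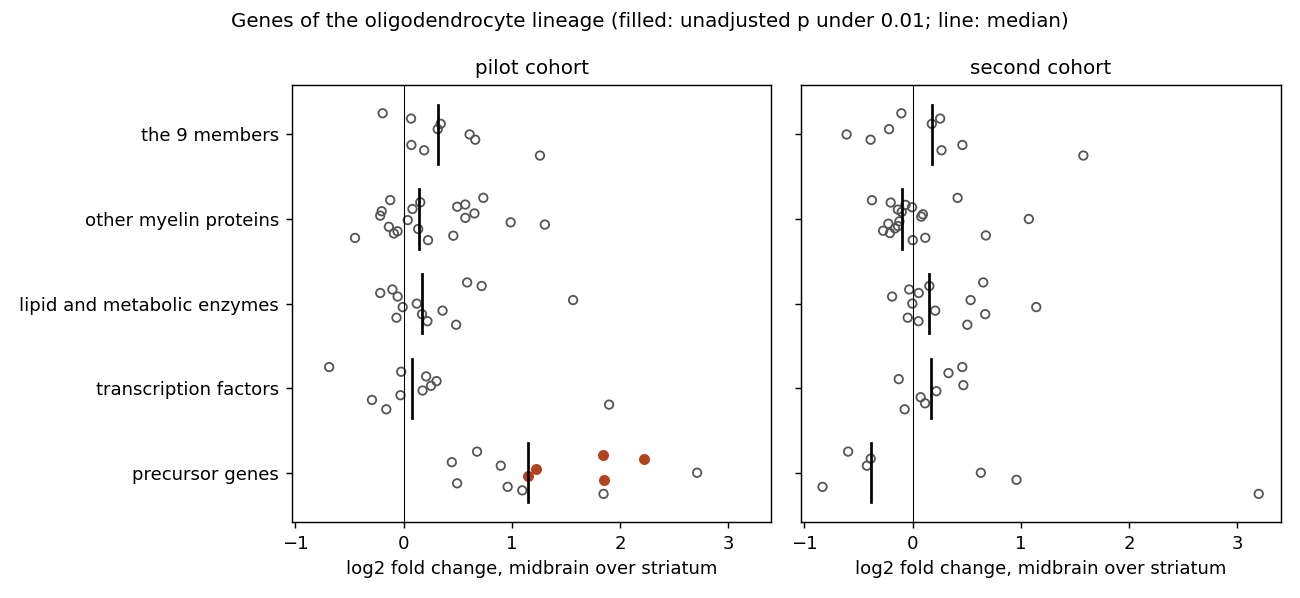
Log2 fold change of midbrain over striatum for the 9 genes and 4 lists of other oligodendrocyte genes in the pilot cohort (left) and the second cohort (right). Each circle is a gene, filled where the unadjusted p was under 0.01, and the line is the list's median. The 5 filled circles are all precursor genes of the pilot cohort, where the list's median is 1.15.

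The genes whose pattern over the 8 libraries was most like the mean of the 9 genes were ranked among 12668 genes by Pearson's r, as a description. Log2 CPM of each gene was first centred within each cohort, so that the difference between the cohorts does not enter r. Among the 10 highest, with r from 0.984 to 0.994 over 8 libraries, were Fdft1, Apbb1, Ephx2, Cntn2, Acot7, Slc48a1, 2310022B05Rik, Pcbp4 and Cachd1. Cntn2 is an adhesion protein of the axon-glia contact. Fdft1, which makes squalene for cholesterol, had the highest r. The 100 highest of the 12668 held 3 of the 19 other myelin proteins ranked, 2 of the 13 enzymes and 1 of the 8 pericyte genes. They held 0 of the 9 transcription factors and 0 of the 11 precursor genes. The mean standardised profile was lowest in the second striatum replicate 3 (-1.44) and the pilot striatum replicate 2 (-1.19) and highest in the second striatum replicate 1 (0.94). Among the 9 genes themselves r with this profile ran from 0.577 for Mbp to 0.994 for Mag. Differences in depth and composition among the 8 libraries enter every r.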

How the data were processed

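RNA of CD11b+ cells from 10 samples was sequenced by MARS-seq. The authors deposited raw counts per gene for each library, and per the file headers these came from featureCounts 1.6.0 with Gencode M17 exons and no strand option, with the reads aligned to GRCm38 by STAR 2.5.3a. Reads in several genes or places were not counted, and the authors' notes also name FastQC. Gene symbols matched 53620 of 53715 identifiers. From the counts, TMM factors and CPM were computed with edgeR 4.0.16 in R 4.3.3. A gene was tested unless it had fewer than 6 counts in over 50% of the libraries of a fit. The regions were compared with voom and limma 3.58.1 in each cohort (a call is an unadjusted p under 0.01), jointly with the cohort as a covariate, and for the difference between cohorts (adjusted p under 0.05, Benjamini-Hochberg over all genes tested). Log2 CPM outside the fits had a prior count of 2. DESeq2 1.42.0 and edgeR's quasi-likelihood test were alternatives. The fits were tested on simulated data.

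Samples were grouped by their titles. 2 of the 10, whose title and file name disagree on region, entered no comparison. Named besides the 9 genes were, by rule, Sox10 and Cspg4, other lineage genes called in the joint fit, of which there were 0, and genes among the 10 most like the 9. Some genes that the rule takes in are not reported here. The precursor genes called in the pilot cohort, Vcan and Col1a1 were chosen after their values were seen. The genes and lists were chosen with earlier results of these data known. Levels of 3 counts, the floor for a count of 0, cover counting error only. The precision of a low gene is set by depth, which ran from 575709 to 8463782 counts.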

Additional observations from a re-analysis of the deposited data

Results flagged for a closer look

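Mbp and Mobp separated the regions in opposite directions in the 2 cohorts. The difference in the regional log2 fold change, second minus pilot, was -1.25 for Mbp (limma adjusted p = 0.860) and -1.10 for Mobp (adjusted p = 0.860), and neither passed an adjusted p under 0.05.

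The 2 libraries in no group also held myelin RNA: the 9 genes took 0.441% of counts in the first and 1.15% in the second, against 0.384% to 0.884% in the 8 others.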

How the results depend on the processing

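Joint calls stayed at 0 of the 9 genes, or of the 8 tested with at least 10 counts in every library or thinned counts, under the alternatives run. In the pilot cohort 2 of the 9 were called with no filter on low counts (Mbp and Mobp, against 3.42% of all genes), and leaving out 1 library gave 0 to 5 (16.8% of all genes at 5). In the second cohort 1 was called with no filter (Mbp, against 2.05%), and leaving out 1 library gave 0 to 1 (10.1% at 1). Of the wider lineage in the joint fit, DESeq2 called 2, sample quality weights 2 (Matn4 and Cacng4), the unassigned libraries placed by file name 1 (Cacng4), and that placement with the file-name number as a block 1 (Vcan). Of the pilot precursor genes DESeq2 called 3 (2.56% of all genes) and no filter 8 (3.42%). The count was not stable when 1 library was left out. For same-numbered libraries, the deviations of log2 CPM from the mean of the library's group were correlated over 14053 genes. The correlation was -0.03 in the pilot and 0.08 in the second cohort, which does not show whether a number marks a mouse. By file names the title-number block of the second cohort joins libraries of different mice. With the replicate block, 1 of the 9 was called in the pilot (Mobp), 1 in the second cohort (Mbp), 0 jointly, and 1 other lineage gene jointly (Vcan), and all genes called moved from 395 to 401, from 468 to 988 and from 149 to 308.

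Of 408 fitted changes of the 9 genes under alternatives, 40 turned sign, 20 of the 54 with the unassigned libraries placed, 18 of the 142 without 1 library and 2 of the 212 others. Placed by title, second-cohort log2 fold changes were -0.32 (Mog), -0.12 (Mag), -0.31 (Cnp) and -0.39 (Olig1), and joint ones -0.25 (Mbp), -0.19 (Mog), -0.28 (Mobp), -0.18 (Cnp), -0.16 (Mal) and -0.19 (Olig1). Placed by file name, second-cohort values were 0.08 (Mbp), 0.43 (Mobp), 0.30 (Mal) and 0.48 (Cldn11), with the block 0.08, 0.42, 0.31 and 0.49, and joint Cldn11 was 0.15 (0.14 with the block). Joint Mal was -0.0041 with edgeR and -0.10 with quality weights. Leaving out 1 library gave pilot ranges of -0.06 to 0.22 (Mog), -0.04 to 0.75 (Mag), -0.13 to 0.29 (Cnp) and -0.31 to 0.97 (Mal), second-cohort ranges of -0.41 to 0.99 (Mag), -0.61 to 0.27 (Mal), -0.57 to 0.66 (Cldn11) and -0.04 to 0.92 (Olig1), and joint ranges of -0.23 to 0.22 (Mbp), -0.09 to 0.37 (Mobp), -0.26 to 0.32 (Mal) and -0.34 to 0.01 (Cldn11). The cause was not tested. Calls over all genes in the joint fit ran from 0 to 554, in the pilot from 108 to 2445 in the second cohort from 132 to 1240, and for the difference between cohorts from 0 to 7. Depth limits Pdgfra, with 0 to 53 counts per library.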

Other observations

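In the library in no group whose title names the midbrain, Mbp had 2642 CPM, Mobp 353 CPM and Pdgfra 2.56 CPM, scaled over all 10 libraries. In the one whose title names the striatum, Mbp had 6392 CPM, Mobp 1287 CPM, Mal 1310 CPM, Cldn11 458 CPM and Pdgfra 1.34 CPM. The latter was above all 8 grouped libraries for 6 of the 9 genes (Mbp, Mog, Mobp, Mal, Cldn11 and Olig1), and the former was below all 8 for 2 (Mobp and Cnp). Fibroblast markers took 0.659% of counts in the latter, against at most 0.308% in the grouped libraries. Border macrophage markers took 0.0297% of counts in the library titled midbrain and 0.188% in the library titled striatum, against 0.152% to 0.259% in the grouped midbrain libraries and 0.0340% to 0.0889% in the grouped striatum libraries, and no region was assigned from these values.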
